A study of Mus musculus with 12 samples.

Results

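The RNAs transcribed from the mitochondrial genome were described in cultured mouse cortical neurons. The members were all genes whose chromosome entry in the deposited count tables was MT, which gave 37 of the 41388 genes listed: 2 rRNAs, 13 mRNAs and 22 tRNAs. In the Htt-72Q group, neurons received a lentivirus expressing exon 1 of mutant Htt with 72 glutamines. In the Htt-25Q group, the exon 1 fragment was wild type and carried 25 glutamines, and in the control vector group the lentivirus was the empty vector. For 1 of the 4 control libraries, control vector 2, the infection entry read control vector, whereas the other 3 read empty vector. All groups shared the rest of the protocol: Swiss Webster embryos at E16, infection on day 5 in vitro, harvest on day 10 in vitro, total RNA and Ribo-Zero depletion. The sources used here give neither the promoter of the virus nor the share of cells infected.

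Each group had 4 libraries, 12 in all, with 12.4 to 27.5 M counts assigned to genes per library. A count of 3, taken as the limit of detection, corresponded to 0.109 to 0.241 CPM (counts per 1000000 counts of the library). The sample descriptions open with a number that libraries of different groups share: 22 and 24 occur in all 3 groups, 26 in Htt-72Q 3 and control vector 3, 27_1 in Htt-72Q 4, Htt-25Q 3 and control vector 4, and 27 in Htt-25Q 4 alone. The labels do not say what this number marks, nor whether the libraries came from separate cultures, so the p-values measure the spread between these libraries. Libraries with the same number deviated together from their group means (correlation across genes of 0.113 to 0.501 in 10 of 10 pairs). Values within a number are given beside the pooled ones. Some libraries with different numbers correlated as strongly, namely Htt-25Q 4 with Htt-72Q 4 (0.414) and with control vector 4 (0.425). Others did not, namely Htt-25Q 3 with Htt-72Q 3 (−0.211) and with control vector 3 (−0.492). The remaining pairs with different numbers were not tested, so these values do not single out the number. Summed levels of the neuronal markers Rbfox3, Map2, Tubb3, Snap25 and Syt1 were 3872 to 6390 CPM, against 839 to 1154 CPM for 5 astrocyte markers and 3.08 to 24.6 CPM for 4 microglial markers. The 5 markers of the oligodendrocyte lineage summed to 214 to 435 CPM, and 2 markers of dividing cells to 73.7 to 122 CPM. Control vector 1 and control vector 3 stood apart from the other control libraries in several mitochondrial measures, and results that rest on them are given with and without them.

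The mitochondrial genome is a small circle whose strands are both transcribed into long precursors that run through many genes. The tRNAs lie between the longer genes, and their excision by the enzymes RNase P and ELAC2 releases the rRNAs and mRNAs. The mRNAs encode subunits of the respiratory complexes I, III and IV and of the ATP synthase, and the 2 rRNAs are the cores of the small and the large subunit of the mitochondrial ribosome. In neurons this genome is best known for its part in supplying ATP for ion pumping and synaptic transmission.

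Of the 37 genes, 15 had counts in all 12 libraries, namely both rRNAs, 7 mRNAs and 6 tRNAs. Another 8 tRNAs had counts in some libraries, and 14 genes were at 0 in every library. Among the genes at 0 were 6 mRNAs: mt-Co2 and mt-Co3, which encode core subunits of cytochrome c oxidase; mt-Atp6 and mt-Atp8, which encode subunits of the ATP synthase; and mt-Nd3 and mt-Nd4l, which encode subunits of complex I. The 11 genes from mt-Ts1 to mt-Nd4l, which lie without interruption at MT:6870-10173 on GRCm38, were all at 0. The genes that flank this stretch were counted in every library, mt-Co1 at 11956 to 48260 counts and mt-Nd4 at 1404 to 10300 counts. The remaining genes at 0 were the tRNAs mt-Tw, mt-Ty and mt-Th.

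**Figure D1:**
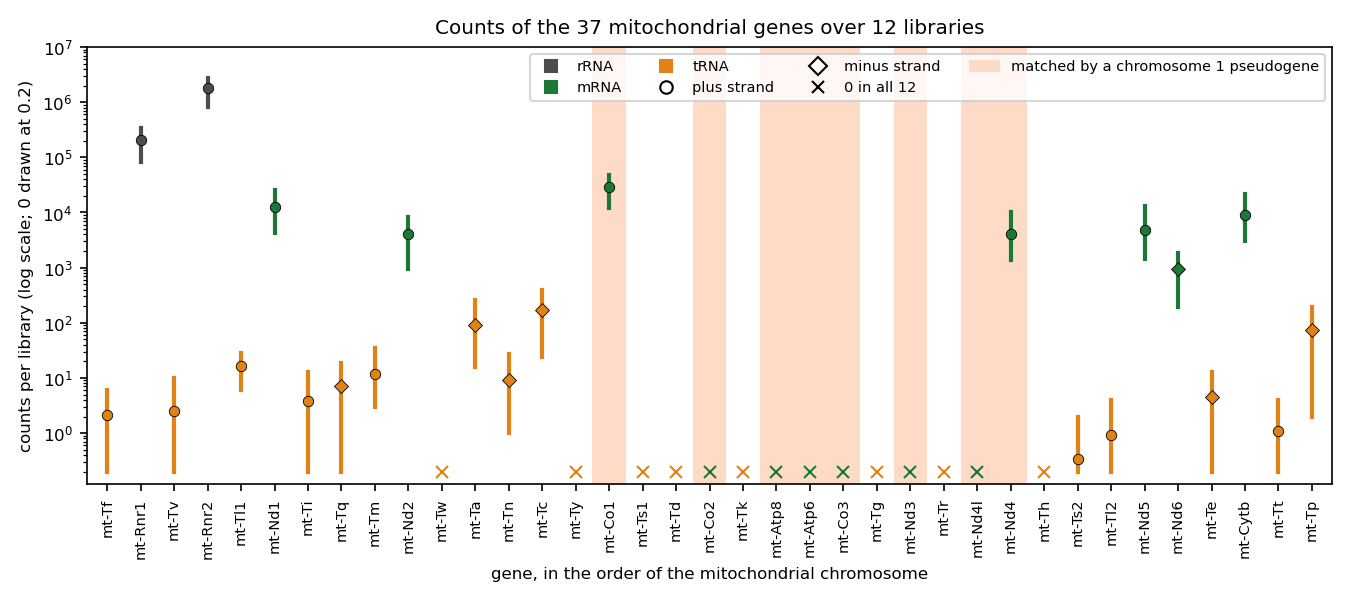
Counts per library (log axis) of the 37 mitochondrial genes in chromosome order; the symbol is the mean of 12 libraries, the bar runs from the lowest to the highest library, and values of 0 are drawn at 0.2. The 11 genes from mt-Ts1 to mt-Nd4l are at 0 in all 12 libraries, and each mRNA among them is matched at 99% identity or more, over all or part of its length, by an annotated pseudogene on chromosome 1 (shaded).

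The mRNAs of that stretch have close relatives in the nuclear genome. When each mitochondrial gene was aligned to all annotated mouse transcripts (GENCODE M21, GRCm38), 7 unprocessed pseudogenes on the minus strand of chromosome 1, together at chr1:24611535-24616197, matched 7 mitochondrial mRNAs at 99% identity or more over more than 100 bases. Gm28661 matched mt-Co2, Gm28437 matched mt-Co3 and Gm10222 matched mt-Nd4l without a mismatch, each over 99% to 99.9% of the gene. Gm10925 matched 99.6% of mt-Atp6 and, where the 2 genes overlap, the last 43 bases of mt-Atp8, also without a mismatch. At the edges of the stretch, Gm29216 matched bases 1063 to 1545 of mt-Co1 with 1 mismatch, and Gm28439 matched bases 1 to 876 of mt-Nd4 with none. These last 2 fall short of the coverage of 80% used to list copies, and were named after their values were seen. Only annotated transcripts were searched, since no genome sequence was used here.

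The pairs that differ are shown as they stand in the reference. The mitochondrial sequence of the Swiss Webster embryos was not examined. Within the matched bases of each pair, only the single mismatch can tell a read of the mitochondrial gene from a read of its copy. For mt-Nd3 and Gm28438, which match over bases 1 to 345, it is T3C, counted from the first base of the gene. The first 33 bases, at MT:9459-9491 on the plus strand and at chr1:24613087-24613119 on the minus strand, are printed with that base in capitals.
mt-Nd3: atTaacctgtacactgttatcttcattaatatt
Gm28438: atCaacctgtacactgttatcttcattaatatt
For mt-Co1 and Gm29216 it is A1066T, in bases 1063 to 1096 of mt-Co1 at MT:6390-6423 on the plus strand and chr1:24616155-24616188 on the minus strand.
mt-Co1: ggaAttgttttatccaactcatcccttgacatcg
Gm29216: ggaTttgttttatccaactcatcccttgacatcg
The copy of mt-Nd4 ends inside the gene; bases 847 to 906, at MT:11013-11072 on the plus strand, are printed with those beyond the copy in capitals.
mt-Nd4: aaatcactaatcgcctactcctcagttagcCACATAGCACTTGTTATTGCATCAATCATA

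The 7 chromosome 1 pseudogenes received few counts, 291 over all 12 libraries. Of these, 277 were in Gm28438, the copy that differs from mt-Nd3 at the third base. Whether these reads came from Gm28438 or from mt-Nd3 was not tested. Gm28438 had 3, 8, 27 and 31 counts in Htt-72Q 1 to 4, 47, 47, 14 and 26 in Htt-25Q 1 to 4, and 21, 5, 46 and 2 in control vector 1 to 4, so the groups overlapped. No other copy exceeded 3 counts in a library, and Gm10222 and Gm28439 were at 0 throughout. More distant copies on chromosome 2 were also low: Gm13340, 97.6% identical to mt-Co1, had 3 to 19 counts per library, and Gm13341, 95.9% identical to mt-Co2, had 0 to 4. The treatment of reads that map to several places is not given in the sources used here and was not tested, so a count of 0 for these genes is no measure of their level, and the counts of mt-Co1 and mt-Nd4 may leave out reads from the matched bases.

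The 2 rRNAs took most of the mitochondrial counts. Per kilobase of gene, mt-Rnr2, the large ribosomal subunit rRNA, had a median of 64552 RPKM (CPM divided by the gene length in kilobases) over the 12 libraries, and mt-Rnr1, the small subunit rRNA, 12231 RPKM. Both come from the same precursor. The labels name Ribo-Zero without its version, so these are levels left after depletion, and how evenly the kit acted on the libraries was not tested. There were 4.95 to 10.6 mt-Rnr2 counts per mt-Rnr1 count. Control vector 1 had the lowest ratio, and the lowest of the other 11 libraries was 7.35, in Htt-25Q 4.

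The mRNAs were ordered alike in most libraries. On the per-kilobase scale mt-Co1, the catalytic subunit of cytochrome c oxidase, had the highest median level at 1007 RPKM, followed by mt-Nd1, a complex I subunit, at 608 RPKM and mt-Cytb, the cytochrome b of complex III, at 373 RPKM. Each of these 3 lay above the next gene in the order in 12 of 12 libraries. The complex I subunits mt-Nd2 (200.1 RPKM) and mt-Nd4 (149 RPKM) were not separable, since mt-Nd2 was the higher in 6 of 12 libraries. Next came mt-Nd5 at 113 RPKM, below mt-Nd4 in 12 of 12 libraries, and mt-Nd6 at 88.8 RPKM, below mt-Nd5 in 8 of 12. If the bases matched by a chromosome 1 copy are left out of the length while all counts are kept, the median becomes 1466 RPKM for mt-Co1 and 409 RPKM for mt-Nd4, which would move mt-Nd4 above mt-Cytb.

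The genes differed in how far they ranged over the libraries. The highest library was 2.27 times the lowest for mt-Rnr1 and 2.4 times for mt-Rnr2 in CPM. Among the mRNAs this ratio ran from 2.19 for mt-Co1 to 6.48 for mt-Nd6, with 5.28 for mt-Nd2, 4.99 for mt-Nd5, 3.98 for mt-Nd4, 3.89 for mt-Cytb and 3.51 for mt-Nd1. The gene with the widest range among the mRNAs, mt-Nd6, is the only mRNA on the minus strand. It had 0.0494 to 0.19 counts for each count of its neighbour mt-Cytb, with control vector 1 at the lowest value and Htt-72Q 3 at the highest.

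The tRNAs were counted at a small fraction of the longer RNAs, 5.35 to 46.4 CPM for all 22 together. Mature tRNAs are short, folded and modified, and the sources used here state no step that would retain them. Counts clustered on the minus strand. Of the 8 minus-strand tRNAs, 6 had counts, and of the 14 plus-strand tRNAs, 8 had, but the minus-strand genes held 72.6% to 94.9% of the tRNA counts of a library. Whether reads were counted by strand is not given in the sources used here; without it, RNA of the opposite strand cannot be told apart from the tRNA. The most counted tRNAs were mt-Tc, for cysteine, with 24 to 397 counts per library, mt-Ta, for alanine, with 16 to 263, and mt-Tp, for proline, with 2 to 194. All are on the minus strand, and mt-Ta and mt-Tc lie in the same cluster of tRNA genes as mt-Tw and mt-Ty, which were at 0.

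The sequences of these 3 tRNA genes and of mt-Tw, a plus-strand tRNA for tryptophan without a count that lies next to mt-Ta, are given 5′ to 3′ as transcribed (GENCODE M21 transcripts, GRCm38). They lie at MT:5192-5257, MT:5018-5086 and MT:15356-15422 on the minus strand and MT:4950-5016 on the plus strand, in the order printed, and no base is marked.
mt-Tc: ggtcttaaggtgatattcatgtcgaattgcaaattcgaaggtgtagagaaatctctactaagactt
mt-Ta: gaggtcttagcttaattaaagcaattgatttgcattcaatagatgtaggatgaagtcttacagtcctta
mt-Tp: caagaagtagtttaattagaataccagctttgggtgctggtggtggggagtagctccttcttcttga
mt-Tw: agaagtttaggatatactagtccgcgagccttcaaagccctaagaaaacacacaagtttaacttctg

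On the plus strand the most counted tRNAs were mt-Tl1, one of the tRNAs for leucine, with 6 to 28 counts per library, and mt-Tm, for methionine, with 3 to 35. The other 9 tRNAs with counts averaged below 10 counts per library. Of these, mt-Tn and mt-Tq reached 27 and 19 counts in their highest library, and mt-Ts2 no more than 2. At these counts only mt-Tq and mt-Tn among the 9 passed the filter on low counts used for testing.

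Mitochondrial rRNA was a larger part of the libraries of Htt-72Q neurons than of most control libraries. The 2 rRNAs made up 12.6%, 10.8%, 14.8% and 14.4% of all counts in Htt-72Q 1 to 4. They made up 13.2%, 11.7%, 7.77% and 10.1% in Htt-25Q 1 to 4, and 6.71%, 7.8%, 14.2% and 7.15% in control vector 1 to 4. The 4 Htt-72Q libraries were above 3 of the 4 control libraries, but control vector 3 lay among them, so the groups overlapped. The mean level was 131457 ± 18297 CPM in Htt-72Q and 89768 ± 35390 CPM in control vector libraries (SD, n = 4 each), a log2 ratio of 0.55, which was 0.86 without control vector 3. Within the shared numbers the log2 ratio of Htt-72Q to control vector was 0.91 for number 22, 0.47 for 24, 0.05 for 26 and 1.01 for 27_1, and so above 0 in 4 of 4. In a bulk sample, more RNA of this kind per cell and more cells rich in it cannot be told apart.

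The summed mRNAs spread more and showed no such order. The 7 counted mRNAs summed to 3079, 2848, 3996 and 2452 CPM in Htt-72Q 1 to 4. They summed to 4845, 4435, 1836 and 3081 CPM in Htt-25Q 1 to 4, and to 5451, 2376, 4464 and 1830 CPM in control vector 1 to 4. The Htt-72Q values lay inside the range of the controls, and the log2 ratio of the means, −0.19, became 0.10 without control vector 1. Within the shared numbers the log2 ratio of Htt-72Q to control vector was −0.82, 0.26, −0.16 and 0.42 for numbers 22, 24, 26 and 27_1, so it had no common sign. For the tRNAs the same log2 ratios were −1.22, 0.32, −0.21 and 1.00.

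**Figure D2:**
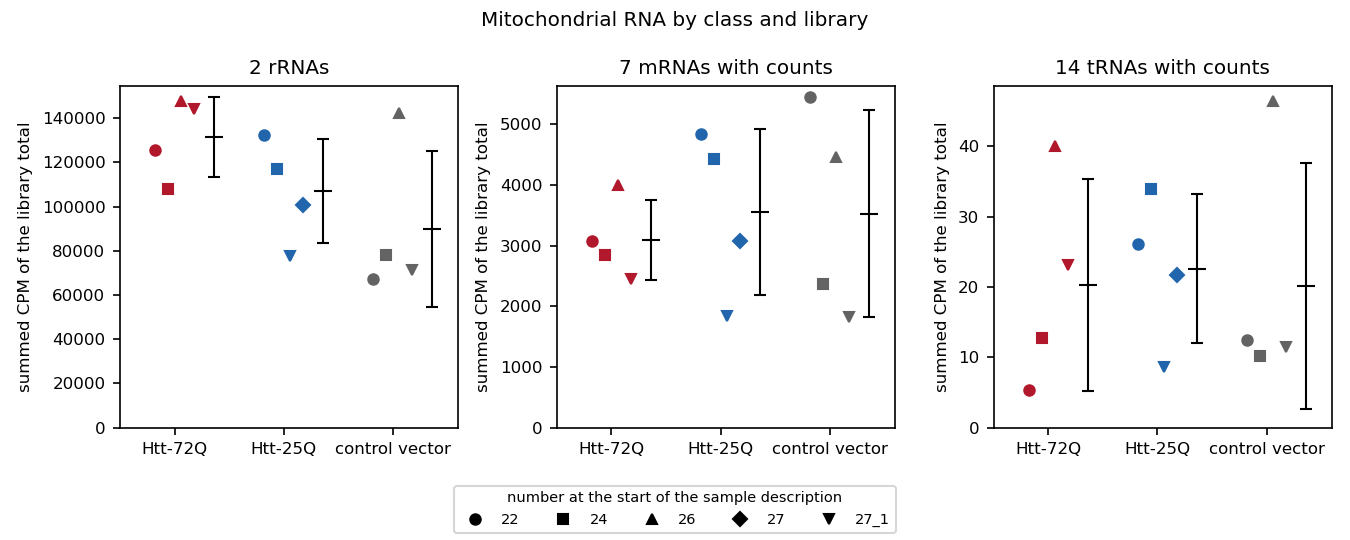
Summed CPM of the library total for the 2 rRNAs, the 7 mRNAs and the 14 tRNAs with counts, 1 symbol per library, shaped by the number at the start of its description; the black mark and bar are the group mean ± SD (n = 4). Control vector 3 (triangle) lies among the Htt-72Q libraries for rRNA at 142428 CPM and is the highest library for tRNA at 46.4 CPM.

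The balance between the classes also differed from library to library. The mRNAs amounted to 2.45%, 2.63%, 2.7% and 1.7% of the rRNAs in Htt-72Q 1 to 4, to 3.66%, 3.79%, 2.36% and 3.05% in Htt-25Q 1 to 4, and to 8.12%, 3.05%, 3.13% and 2.56% in control vector 1 to 4. Control vector 1 had the most mRNA for its rRNA, and Htt-72Q 4 the least. The lowest control library, control vector 4, lay below 2 of the Htt-72Q libraries. The ratio of mt-Rnr2 to mt-Rnr1 was narrower in Htt-72Q, 9.35 to 9.94, than in Htt-25Q, 7.35 to 9.59, or control vector, 4.95 to 10.6. Without control vector 1 the control libraries were at 9.43 to 10.6. The difference in spread was not tested.

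The comparison of Htt-72Q with control vector asks which RNAs differ in neurons that express the expanded fragment. Across all genes, edgeR's quasi-likelihood test called 3411 of 14707 genes at an adjusted p (Benjamini-Hochberg over all genes tested) under 0.05, or 23.2%. Of the 37 mitochondrial genes 16 passed the filter on low counts and were tested, and none of them was called; 1, mt-Tq, had an unadjusted p under 0.05, and DESeq2 also called none. In none of the 16 did the 4 Htt-72Q libraries lie apart from the 4 control libraries, whereas 24.7% of all tested genes had such ranges.

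The rRNA mt-Rnr2 came closest among the long RNAs. It was at 113601, 98250, 133820 and 130746 CPM in Htt-72Q 1 to 4, and at 55851, 71278, 128768 and 64952 CPM in control vector 1 to 4. The Htt-72Q libraries exceeded control vector 1, 2 and 4, and control vector 3 lay within their range. The log2 fold change was 0.49 ± 0.24 (SE; adjusted p = 0.155, edgeR). With the shared number as a block it was 0.56 ± 0.18 (adjusted p = 0.0332, edgeR), and without control vector 3 it was 0.81 (adjusted p = 0.00471, edgeR). In both of these fits mt-Rnr2 was called. The fit with the block called 30.5% of all genes, and that without control vector 3 called 3187 of 14889. Lower values, none of them called, were 0.35 without control vector 1, 0.41 without control vector 2 and 0.39 without control vector 4. Without Htt-72Q 3 the value was 0.41, and with 1 surrogate variable 0.35, and mt-Rnr2 was not called in either. Its partner mt-Rnr1 was at 12152, 9886, 13980 and 13394 CPM in Htt-72Q 1 to 4 and at 11281, 6733, 13660 and 6547 CPM in control vector 1 to 4. For mt-Rnr1 the log2 fold change was 0.29 ± 0.24 (adjusted p = 0.425), and with the block it was 0.36 ± 0.17 (adjusted p = 0.118). It was 0.50 without control vector 3 and 0.37 without control vector 1, but 0.12 without control vector 2 and 0.13 without control vector 4; none of these 4 values was called.

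Among the mRNAs mt-Co1 was at nearly the same mean in the groups, 1565 ± 217 CPM in Htt-72Q and 1563 ± 536 CPM in control vector libraries (SD, n = 4 each), with a log2 fold change of −0.08 ± 0.26 (0.00 with library totals as the only scaling). The complex I mRNAs mt-Nd1, mt-Nd2, mt-Nd4 and mt-Nd5 and the complex III mRNA mt-Cytb had log2 fold changes of −0.60 for mt-Nd5 to −0.38 for mt-Nd2, with adjusted p-values of 0.356 to 0.679. These values leaned on control vector 1, which had the highest level of 4 of these 5 mRNAs. Without it the log2 fold changes of the 5 were −0.15 for mt-Nd2 to 0.10 for mt-Nd4. The minus-strand mRNA mt-Nd6 was at 26.4, 33.4, 98.7 and 46.1 CPM in Htt-72Q 1 to 4 and at 46.2, 18.4, 87.3 and 15.2 CPM in control vector 1 to 4. The groups overlapped over most of their ranges, with a log2 fold change of 0.20 ± 0.56 (adjusted p = 0.832).

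The 7 tested tRNAs ranged from −2.37 for mt-Tq to 0.30 for mt-Tn on the log2 scale. The value for mt-Tq, a minus-strand tRNA for glutamine, came from few reads: 0, 3, 0 and 3 counts in Htt-72Q 1 to 4, against 15, 4, 19 and 1 counts in control vector 1 to 4. Its lowest control library fell within the Htt-72Q range. The log2 fold change was −2.37 ± 0.92 (adjusted p = 0.0788, edgeR) and passed the threshold only without control vector 4, the library with 1 count (−2.67, adjusted p = 0.0478). The tRNA mt-Tc, the most counted, was at 9.46 ± 5.4 CPM in Htt-72Q and 7.95 ± 7.88 CPM in control vector libraries (SD, n = 4 each).

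**Figure D3:**
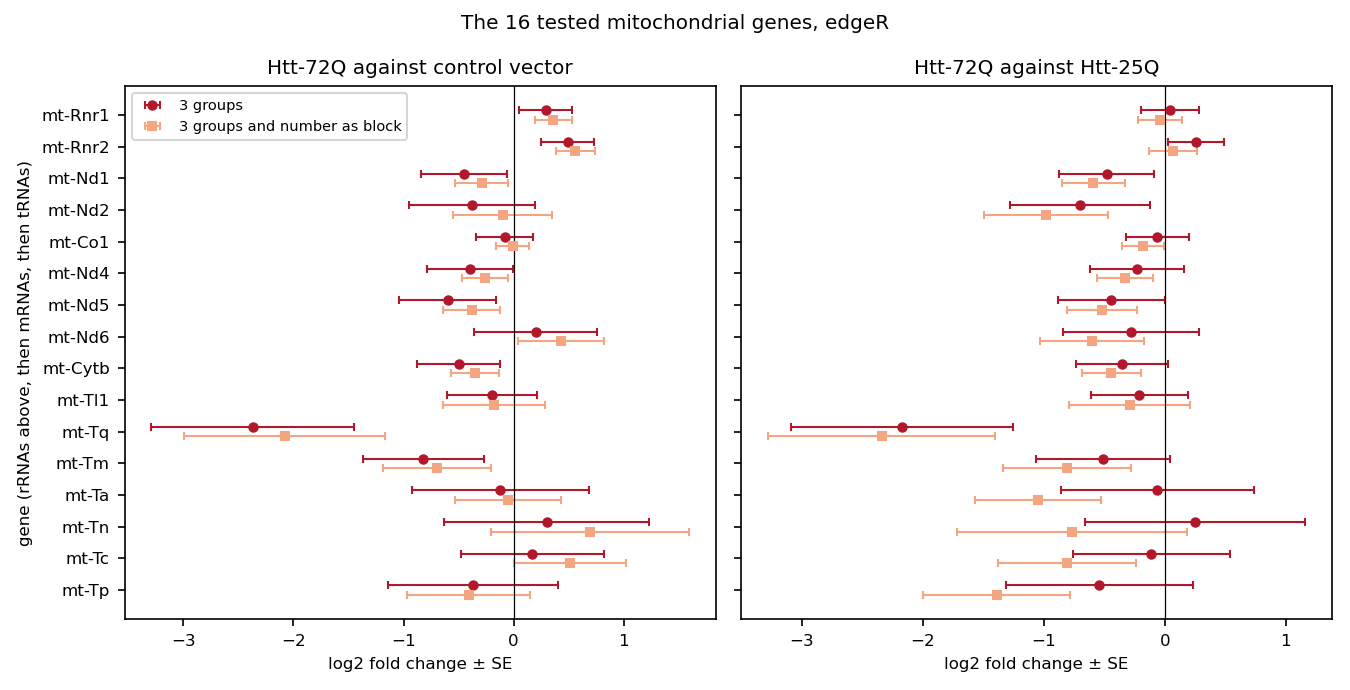
Log2 fold change ± SE (edgeR) of the 16 tested mitochondrial genes for Htt-72Q against control vector and against Htt-25Q, from the fit on 3 groups (circles) and with the number at the start of the description as a block (squares). Both rRNAs lie above 0 against control vector and 6 of 7 mRNAs below it (mt-Co1 at 0.00 if scaled by library totals alone), and in these fits only mt-Rnr2 with the block passed the threshold (adjusted p = 0.0332).

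The comparison of Htt-72Q with Htt-25Q is between groups that both received an exon 1 fragment, with different numbers of glutamines; the level of the fragment was not analysed here. It called 3308 of 14707 genes, or 22.5%, and again none of the 16 mitochondrial genes, of which mt-Tq alone had an unadjusted p under 0.05 (edgeR; DESeq2 also called none). No member had ranges that lay apart, against 27.7% of all tested genes. The rRNA mt-Rnr2 was at 117533, 105994, 69638 and 88817 CPM in Htt-25Q 1 to 4, and 2 of the Htt-72Q libraries exceeded all of these. Its log2 fold change was 0.26 ± 0.23 (adjusted p = 0.48; 0.07 ± 0.20 with the block), and that of mt-Rnr1 was 0.04 ± 0.24 (adjusted p = 0.937). All 7 mRNAs had log2 fold changes below 0, from −0.70 ± 0.58 for mt-Nd2 to −0.06 for mt-Co1, which was at 0.00 with library totals as the only scaling; the adjusted p-values were 0.413 to 0.899. With a division of the libraries by their level of Ctnnd1 as a covariate all 7 lay above 0, from 0.22 for mt-Nd1 to 0.68 for mt-Nd6, and none was called. Within the shared numbers the log2 ratio of the summed mRNAs was −0.65 for number 22 and −0.64 for 24 but 0.42 for 27_1. That of the summed rRNAs was −0.07 for number 22 and −0.11 for 24 but 0.89 for 27_1. The tRNA mt-Tq, with 14, 17, 3 and 5 counts in Htt-25Q 1 to 4, had a log2 fold change of −2.17 ± 0.92 (adjusted p = 0.11).

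The comparison of Htt-25Q with control vector concerns the wild-type fragment itself and shares its control libraries with that of Htt-72Q. EdgeR called 0 of 14707 genes, 0%, and 129 had an unadjusted p under 0.05; DESeq2 also called 0, with 204 at an unadjusted p under 0.05. In that fit none of the 16 mitochondrial genes had an unadjusted p under 0.05. The log2 fold changes were 0.25 ± 0.24 for mt-Rnr1, 0.23 ± 0.23 for mt-Rnr2 and 0.48 ± 0.56 for mt-Nd6, each with an adjusted p of 1, and those of the other 6 mRNAs lay between −0.17 and 0.32. With the shared number as a block, 3 had an unadjusted p under 0.05, namely mt-Rnr2 at 0.49 ± 0.20, mt-Nd6 at 1.04 ± 0.43 and mt-Tc at 1.32 ± 0.60 on the log2 scale. Each had an adjusted p of 0.847 by edgeR, and this fit also called 0 genes, with 603 at an unadjusted p under 0.05. The summed rRNAs were higher in Htt-25Q within each of the 3 shared numbers, with log2 ratios of 0.98 for number 22, 0.59 for 24 and 0.12 for 27_1.

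The level of the mitochondrial mRNAs followed a division of the libraries that cuts across the groups. An earlier analysis of these data had split the libraries at a gap in Ctnnd1, the gene of p120 catenin, into 6 libraries at 25 to 31.6 CPM and 6 at 14.2 to 17.7 CPM. The glycolytic enzyme gene Gapdh was at 9.16 to 20.3 CPM in the 6 high-Ctnnd1 libraries and at 35.4 to 50.2 CPM in the 6 low-Ctnnd1 libraries. As the handling of multiply mapped reads is not given, these counts may leave out Gapdh reads and are no measure of its full level. The low-Ctnnd1 libraries were Htt-72Q 1, 2 and 4, Htt-25Q 3 and control vector 2 and 4. The labels name no such division, and what it reflects was not tested.

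The 7 mRNAs summed to 3081 to 5451 CPM in the high-Ctnnd1 libraries and to 1830 to 3079 CPM in the low-Ctnnd1 libraries, so the ranges touched but did not overlap. For single genes the ranges lay apart in 4 of 7 mRNAs and 1 of 7 tested tRNAs, all higher in the high-Ctnnd1 libraries. Of all 14707 genes, 0.367% lay apart in that direction, the only one counted for this share. Mitochondrial genes share precursors, so they are not independent of each other. Ranges overlapped for mt-Nd4, at 191 to 441 CPM in the high-Ctnnd1 and 111 to 219.8 CPM in the low-Ctnnd1 libraries. They also overlapped for mt-Nd5, at 200.4 to 553 CPM and 111 to 210.4 CPM in the same order. The complex I mRNA mt-Nd1 was at 646 to 1113 CPM in the high-Ctnnd1 libraries and 317 to 518 CPM in the low-Ctnnd1 libraries, and mt-Nd2 at 252 to 376 CPM in the high-Ctnnd1 libraries and 71.4 to 164 CPM in the low-Ctnnd1 libraries. The minus-strand mRNA mt-Nd6 was at 46.2 to 98.7 CPM in the high-Ctnnd1 and 15.2 to 46.1 CPM in the low-Ctnnd1 libraries, and mt-Cytb at 441 to 935 CPM in the high-Ctnnd1 and 241 to 412 CPM in the low-Ctnnd1 libraries. The tRNA was mt-Ta, at 4.45 to 14 CPM in the high-Ctnnd1 and 1.1 to 2.69 CPM in the low-Ctnnd1 libraries. The medians differed by 3.93 times for mt-Nd2, 3.52 times for mt-Nd6 and 4.98 times for mt-Ta, and by 1.51 times for mt-Co1, whose ranges overlapped. The rRNAs also overlapped, with medians that differed by 1.43 times for mt-Rnr1 and 1.32 times for mt-Rnr2.

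**Figure D4:**
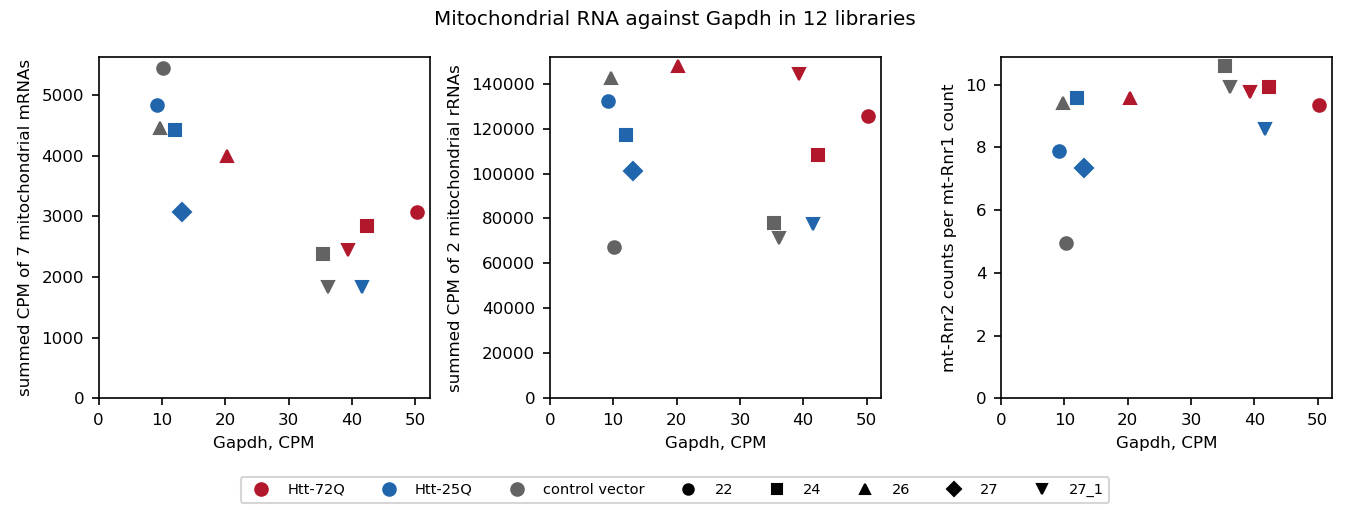
Summed CPM of the 7 mitochondrial mRNAs, summed CPM of the 2 rRNAs and the ratio of mt-Rnr2 to mt-Rnr1, each against Gapdh in CPM, 1 symbol per library, coloured by group and shaped by the number at the start of the description. The 6 libraries with Gapdh at 35.4 CPM or more all have 3079 CPM or less of mRNA, while for rRNA they lie among the other 6.

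Since 3 of the 4 Htt-72Q libraries were low in Ctnnd1, against 1 Htt-25Q and 2 control libraries, the division was also entered as a covariate. In that fit of Htt-72Q against control vector, edgeR called 26% of all genes and 3 of the 16 mitochondrial genes: mt-Rnr1 at 0.52 (adjusted p = 0.0253), mt-Rnr2 at 0.61 (adjusted p = 0.0441) and mt-Nd6 at 0.83 (adjusted p = 0.0155) on the log2 scale. The division was drawn from these same counts, and the ranges of mt-Nd6 lay apart across it. These calls therefore depend on the choice of covariate and are no independent evidence. With the covariate the log2 fold changes of mt-Nd1, mt-Nd2, mt-Nd4 and mt-Co1 were 0.03, 0.36, 0.06 and 0.16, where the fit without it put them below 0; none of the 4 was called. Against Htt-25Q the same fit called 22.7% of all genes and none of the 16.

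The nuclear genes that maintain, transcribe, process and translate mitochondrial RNA were taken as 3 lists. Of 21 genes for mtDNA maintenance and transcription, all tested, 5 were called higher and 0 lower in Htt-72Q against control vector, 23.8% of the list beside 23.2% of all genes, with a median log2 fold change of 0.11 beside 0.03 for all genes. Against Htt-25Q 2 were higher and 0 lower, 9.52% of the list beside 22.5% of all genes, with a median of 0.22 beside 0.03. Mterf4, a factor for assembly of the mitochondrial ribosome, averaged 28 ± 1.98 CPM in Htt-72Q and 16 ± 2.61 CPM in control vector libraries (SD, n = 4 each; log2 fold change 0.73 ± 0.16, adjusted p = 0.00487). Twnk, the helicase that unwinds mitochondrial DNA, averaged 22.8 ± 4.93 CPM in Htt-72Q and 13.1 ± 0.737 CPM in Htt-25Q libraries (0.73 ± 0.18, adjusted p = 0.00988). Against control vector the number called was 2 without Htt-72Q 3, control vector 2 or control vector 4, and 3 without Htt-72Q 1, Htt-72Q 2, Htt-25Q 2, Htt-25Q 4 or control vector 1. Over all genes these fits called 2671 of 15105 (without control vector 2) to 3214 of 14869 (without Htt-25Q 2). Against Htt-25Q the number called in the list was 1 without Htt-72Q 1, Htt-72Q 2, Htt-25Q 3 or Htt-25Q 4. Over all genes these fits called 2293 of 15102 (without Htt-25Q 4) to 2724 of 14989 (without Htt-72Q 1). It was 1 in the list with the block, which called 21.2% of all genes. With the Ctnnd1 division as a covariate, which called 22.7% of all genes, it was 5.

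Of 36 tested genes for processing and turnover of mitochondrial RNA, 5 were called higher and 2 lower in Htt-72Q against control vector (19.4% beside 23.2% of all genes; median 0.08 beside 0.03), and 4 higher and 3 lower against Htt-25Q (19.4% beside 22.5% of all genes; median 0.15). Mrm3, a methyltransferase that acts on the rRNA of mt-Rnr2, averaged 24.6 ± 2.33 CPM in Htt-72Q libraries, 12.5 ± 1.12 CPM in Htt-25Q libraries and 12.4 ± 2.39 CPM in control vector libraries (SD, n = 4 each). Its log2 fold change was 0.91 ± 0.16 against control vector (adjusted p = 0.000939) and 0.91 ± 0.16 against Htt-25Q (adjusted p = 0.000942). Mto1, which modifies the wobble uridine of mitochondrial tRNAs, fell, with log2 fold changes of −0.76 ± 0.14 against control vector (adjusted p = 0.00119) and −0.63 ± 0.14 against Htt-25Q (adjusted p = 0.00427). Supv3l1, the helicase of the complex that degrades mitochondrial RNA, fell as well, to 16.8 ± 0.851 CPM in Htt-72Q against 23 ± 0.676 CPM in control vector libraries (−0.54 ± 0.12, adjusted p = 0.00387). Against control vector the number called was 4 without Htt-72Q 3 or control vector 2. Over all genes these 2 fits called 3148 of 15065 and 2671 of 15105. Against Htt-25Q it was 4 without Htt-25Q 4, where 2293 of 15102 were called over all genes. With the block it was 8 against control vector, beside 30.5% of all genes, and 5 against Htt-25Q, beside 21.2%.

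Of 76 tested genes for proteins of the mitochondrial ribosome, 8 were called higher and 0 lower in Htt-72Q against control vector, 10.5% of the list beside 23.2% of all genes, with a median of 0.25. Against Htt-25Q 5 were higher and 0 lower (6.58% beside 22.5%; median 0.17). Mrpl21, of the large subunit, averaged 34.3 ± 6.36 CPM in Htt-72Q and 20.3 ± 3.71 CPM in control vector libraries (SD, n = 4 each; 0.68 ± 0.17, adjusted p = 0.0108), and Mrps9, of the small subunit, averaged 37.3 ± 4.51 CPM in Htt-72Q and 23.8 ± 4.05 CPM in control vector libraries (0.57 ± 0.16, adjusted p = 0.0165). This count moved most. Against control vector it was 19 with the block, in which the share over all genes was 30.5%, 16 with library totals as the only scaling, 3 without control vector 2, 4 without Htt-72Q 2 or 3, and 5 without Htt-25Q 1, 3 or 4 or control vector 1. Against Htt-25Q it was 1 with the block, 12 with library totals as the only scaling, 0 without Htt-25Q 1, 1 without Htt-72Q 2 or 3, Htt-25Q 4 or control vector 2, 2 without Htt-25Q 2, 3 without Htt-25Q 3 and 13 without control vector 1. The number called over all genes moved in the same fits. Against control vector it was 3633 of 14707 with library totals alone. In the fits named without a library it was 2671 of 15105 (without control vector 2) to 3265 of 14878 (without Htt-25Q 3). Against Htt-25Q it was 3435 of 14707 with library totals alone and 3902 of 14852 without control vector 1. In the other fits named it was 2293 of 15102 (without Htt-25Q 4) to 3060 of 15065 (without Htt-72Q 3), and 21.2% with the block. In Htt-25Q against control vector none of the genes of the 3 lists was called.

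Levels of some cell type markers moved with the groups. The 5 neuronal markers summed to 3872 to 4243 CPM in Htt-72Q libraries, 5014 to 5557 CPM in Htt-25Q libraries and 5149 to 6390 CPM in control vector libraries. The excitatory neuron markers Slc17a7, Neurod6 and Tbr1 summed to 161 to 242 CPM in Htt-72Q libraries, 432 to 571 CPM in Htt-25Q libraries and 414 to 515 CPM in control vector libraries, so the Htt-72Q range of the sum lay apart below the others. Taken singly, Slc17a7 and Neurod6 did so too, but Tbr1, at 11.6 to 18 CPM in Htt-72Q, overlapped control vector at 17.8 to 39.9 CPM. Of all tested genes, 24.7% had ranges apart from control vector and 27.7% from Htt-25Q, in either direction. The 3 inhibitory neuron markers summed to 89.2 to 141 CPM in Htt-72Q libraries, 131 to 255 CPM in Htt-25Q libraries and 166 to 241 CPM in control vector libraries. The 5 astrocyte markers summed to 989 to 1154 CPM in Htt-72Q libraries, 879 to 1013 CPM in Htt-25Q libraries and 839 to 1031 CPM in control vector libraries. No marker of these lists was at 0 in all libraries. Their part in the mitochondrial levels was not tested.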

How the data were processed

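RNA-seq counts of 12 libraries were analysed, 4 per group. Per the submitters' processing notes, reads were aligned with STAR 2.0.4b to GRCm38 and counted per gene with featureCounts 1.45 of Subread. The sources used here do not give the annotation release, the strand setting or the handling of multiply mapped reads. The deposited files hold, per the file headers, raw counts, CPM and RPKM for each gene; the CPM and RPKM that the authors deposited follow from the counts and the listed lengths. Per the labels, each library was sequenced in 2 lanes that were merged.

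Groups were taken from the sample titles. The members, gene lists and the division by Ctnnd1 were chosen with earlier results of these data known. Counts were tested with edgeR 4.0.16 (R 4.3.3) over all genes and all 12 libraries: filterByExpr (minimum count 10), TMM scaling, glmQLFit and glmQLFTest, two-sided, Benjamini-Hochberg adjustment, called at 0.05. Standard errors are the log2 fold change divided by the square root of F. Levels in the text are CPM of the library total, and summed levels and ratios carry no test. Libraries with the same number at the start of their descriptions correlated above 0.1 in 10 of 10 pairs. Htt-25Q 4 also correlated with Htt-72Q 4 and control vector 4, which carry another number. Whether the number marks a shared preparation was not tested. Fits with that number as a block are given beside results whose call or count they change. Htt-25Q 4 is alone in its block and adds nothing to the comparisons in that fit.

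The 2 rRNAs, all mRNAs and each tRNA with a mean of at least 10 counts were described singly, and at most 4 called genes of each nuclear list were named by smallest p. One marker of excitatory neurons is not reported here. Copies were sought with blastn 2.17.0 in GENCODE M21 transcripts, not in the genome as first designed. Alternatives (DESeq2 1.42.0, sva 3.50.0, other scalings, filters, blocks, left-out libraries) are described at the end. No pair of libraries agreed within sampling noise (smallest chi-square per degree of freedom 8.31), and the fit was tested on simulated data. Changes were planted in genes drawn at random. For Htt-72Q against control vector the fit recovered 58.6% of 2-fold and 94.9% of 4-fold changes. For Htt-25Q against control vector it recovered 55.1% and 94.8%. A gene without a call can therefore still differ by 2-fold. These shares hold for genes drawn at random, and recovery was not measured for the mitochondrial genes. For Htt-72Q against control vector the standard errors of the 16 tested ran from 0.24 to 0.93 on the log2 scale. Among them mt-Tq was not called at −2.37, so larger changes can be missed as well.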

Additional observations from a re-analysis of the deposited data

Results flagged for a closer look

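Among 72 sets of 4 libraries (16 genes, 3 class sums and 5 ratios or shares in each group), 8 had a library whose distance to the nearest of the others exceeded Dixon's 95% critical value as a share of the range. Chance marks about 1 in 20 such sets. The sets are not independent, since the class sums and the ratios reuse the same genes, and no excess over that share was tested. Control vector 3 accounted for 5 of the 8. It had 142428 CPM of rRNA, against 67132 to 78011 CPM in the other control libraries, and 46.4 CPM of tRNA, against 10.2 to 12.5 CPM. It also had 9.2 CPM of mt-Tp, against 1.85 to 2.4 CPM, and 1.31 CPM of mt-Tn, against 0.0428 to 0.179 CPM. Its ratio of mt-Nd6 to mt-Cytb was 0.142, against 0.0494 to 0.0633. Control vector 1 had mRNA equal to 8.12% of its rRNA, against 2.56% to 3.13% in the other control libraries. Htt-72Q 3 had 14 CPM of mt-Ta, against 1.1 to 2.69 CPM in the other Htt-72Q libraries. In Htt-72Q 1 the minus-strand genes held 78.2% of the tRNA counts, against 90.4% to 92.4% in the others, from 78 tRNA counts in all.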

How the results depend on the processing

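For Htt-72Q against control vector, 0 mitochondrial genes were called in the fit on 3 groups, 1 with the replicate block by the number at the start of the description, 3 with the Ctnnd1 division as a covariate, and 0 to 1 when single libraries were left out; the cause was not tested. mt-Rnr2 was above 0 in 25 of 25 fits and called in 3. The other 2 comparisons called 0 in every alternative run. The replicate number of the titles, shared by 12 pairs of which 10 correlated above 0.1 (lowest −0.492), called 0 as a block. Of 272 values for single mitochondrial genes under alternatives that leave out no library, 253 kept direction and call, 4 gained a call (mt-Rnr2 with the block, mt-Rnr1, mt-Rnr2 and mt-Nd6 with the covariate) and 15 changed sign, none of them called. Against control vector these were mt-Co1 (0.00 with library totals alone, 0.16 with the covariate), mt-Nd1 (0.03), mt-Nd2 (0.36) and mt-Nd4 (0.06) with the covariate, and mt-Nd6 (−0.32 with 1 surrogate variable). Against Htt-25Q they were mt-Rnr1 (−0.04 with the block by that number), mt-Co1 (0.00 with library totals alone) and, with the covariate, all 7 mRNAs: mt-Nd1 (0.22), mt-Cytb (0.30), mt-Nd5 (0.32), mt-Nd2 (0.33), mt-Co1 (0.34), mt-Nd4 (0.40) and mt-Nd6 (0.68). Leaving out single libraries gave −0.27 to 0.08 for mt-Co1, −0.89 to 0.08 for mt-Nd2, −0.64 to 0.10 for mt-Nd4 and −0.36 to 0.84 for mt-Nd6 against control vector, and −0.10 to 0.17 for mt-Rnr1 and −0.23 to 0.09 for mt-Co1 against Htt-25Q. The log2 ratios of the 3 summed classes moved by less than the spread between libraries (1 SD) with 2 other denominators, within the shared numbers and without single libraries, though some changed sign without a library, as the mRNAs of Htt-72Q against control vector did (−0.19, and 0.10 without control vector 1). Over the alternatives that leave out no library, the nuclear lists had 2 to 6, 4 to 10 and 3 to 19 genes called against control vector, and 1 to 5, 5 to 11 and 1 to 13 against Htt-25Q, in the order maintenance, processing and ribosome. Over all genes, calls for Htt-72Q against control vector were 1389 higher and 2022 lower, but 1931 and 1702 with library totals alone and 1735 and 1778 with upper-quartile scaling. In total they were 2595 to 4490 over the alternatives that leave out no library, and 2671 to 3265 without single libraries. Against Htt-25Q they were 1334 higher and 1974 lower, and 1745 and 1690 with library totals alone. In total these were 3080 to 4487 over the alternatives that leave out no library, and 2293 to 3902 without single libraries. Low counts limit what can be said of the tRNAs: 17 of 22 averaged below 10 counts, and 8 were at 0 in all 12 libraries. What kept their counts low was not tested.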
